A study of Mus musculus with 2 samples.

Results

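The 32 mitosis genes encode proteins that start, run and end cell division, and they were taken by gene symbol from the 32285 genes of the count tables. All 32 had UMIs (unique molecular identifiers, which count each captured mRNA molecule once) in both libraries. The study asked how the tumor environment responds when pericytes, the mural cells of small vessels, lose soluble guanylate cyclase, the receptor of nitric oxide. LLC (Lewis lung carcinoma) cells, an established mouse cancer line, were grown as tumors in C57BL/6 mice. The sGC Ctr mice were Gucy1b1 flox/flox without a Cre driver, and the sGC ∆PC mice carried Cspg4-CreERT2 with the same floxed gene, which the label of that library spells Gucyc1b1. This Cre is switched on by tamoxifen in cells that express Cspg4, and the inoculated cancer cells do not carry it. Per the study's methods, mice of both groups were 4 weeks old when they received tamoxifen (5 doses) and 8 weeks old when inoculated, and cells of 3 tumors per group were pooled 2 weeks later. Each group is therefore 1 library, the condition cannot be told apart from the library, and no test between groups was possible. The intervals given are exact at 95% and cover counting error only.

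The sGC Ctr library held 15007 barcodes and the sGC ∆PC library 25631, of which 131 were the same sequence in both. After filtering, 12220 and 22498 cells remained, with medians of 35776.5 and 8685 UMIs, so the libraries stood apart in depth. Cells with under 2000 UMIs numbered 547 and 3928 and were kept out of the cell classes. Gucy1b1, the targeted gene, was at 136.5 (103.6 to 176.4) CPM (UMIs per 1000000 UMIs of the class) in the 34 pericyte-gated cells of sGC Ctr and at 42.3 (21.9 to 73.9) in the 24 of sGC ∆PC.

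A cell that enters mitosis is driven by the kinase CDK1 with its cyclins. Polo-like and Aurora kinases then build the spindle and correct its attachments, and the spindle checkpoint holds the anaphase-promoting complex until every chromosome is attached. The complex, with CDC20 and the ubiquitin-conjugating enzyme UBE2C, marks cyclin B and other proteins for destruction, after which the midzone and the contractile ring part the daughter cells. Most of these genes are transcribed late in the cell cycle and are nearly silent in cells that do not divide, which is why they serve as markers of proliferation in tumors. Their promoters are known for a pair of DNA elements, the CCAAT box bound by NF-Y and the cell cycle genes homology region (CHR, TTTGAA) bound by the DREAM and MuvB complexes.

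Of the 32 members, 26 had a promoter window in the RefSeq table used (build GRCm38.p6, 250 bases before to 50 bases after the start), and *Ccna2*, *Aurkb*, *Tpx2*, *Kif20a*, *Pimreg* and *Smc4* had none. *Prc1* and *Ect2* had 2 windows each, and a gene was counted where any of its windows held the letters. CCAAT occurred on either strand in the windows of 24 of the 26 members (92.3%) and in 41.1% of the 27025 genes with a window. TTTGAA occurred in 21 members (80.8%) and in 20.2% of all genes. Both stood together in 21 members (80.8%), against 8.97% of all genes, so every member with TTTGAA also had CCAAT. At least 2 CCAAT matches were present in 17 members (65.4%) and in 13.3% of all genes. The E2F-like letters TTTGGCGC or TTTCCCGC, searched on both strands, occurred in 0 of the 26 members and in 1.80% of all genes. A match is a description of the letters and not evidence of binding.

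The 150 bases before the start are shown for 6 members, in capitals where they hold the CCAAT box or the CHR, on this strand or as the reverse complement. The first 4 hold both elements close to the start, *Ccnb1* holds CCAAT but not the letters TTTGAA, and *Birc5* holds neither string. Other spellings of the CHR were not searched. They are written along the strand of the gene, and the coordinates are of GRCm38.p6, the assembly that mm10 names.
Cdk1, chr10:69352913-69353062, minus strand: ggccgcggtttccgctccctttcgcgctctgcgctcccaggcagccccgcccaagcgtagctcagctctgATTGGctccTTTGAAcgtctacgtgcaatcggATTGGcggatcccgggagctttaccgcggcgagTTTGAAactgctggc
Cdc20, chr4:118437344-118437493, minus strand: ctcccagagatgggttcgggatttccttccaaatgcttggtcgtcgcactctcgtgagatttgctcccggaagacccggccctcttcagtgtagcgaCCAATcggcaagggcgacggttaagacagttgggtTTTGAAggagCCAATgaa
Ube2c, chr2:164769779-164769928, plus strand: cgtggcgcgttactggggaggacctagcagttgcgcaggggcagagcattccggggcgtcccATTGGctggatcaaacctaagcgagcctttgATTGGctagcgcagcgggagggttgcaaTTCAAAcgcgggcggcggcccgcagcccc
Top2a, chr11:99024190-99024339, minus strand: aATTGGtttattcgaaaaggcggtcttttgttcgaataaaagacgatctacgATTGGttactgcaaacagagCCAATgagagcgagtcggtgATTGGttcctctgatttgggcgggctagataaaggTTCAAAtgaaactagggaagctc
Ccnb1, chr13:100786487-100786636, minus strand: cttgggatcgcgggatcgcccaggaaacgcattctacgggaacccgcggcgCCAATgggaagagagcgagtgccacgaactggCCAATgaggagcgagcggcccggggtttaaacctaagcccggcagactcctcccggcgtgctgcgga
Birc5, chr11:117849087-117849236, plus strand: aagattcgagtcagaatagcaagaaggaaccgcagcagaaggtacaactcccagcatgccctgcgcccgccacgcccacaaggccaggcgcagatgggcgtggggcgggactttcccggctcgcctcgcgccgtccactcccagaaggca
In these stretches the TTTGAA nearest to the start began at base -15 in *Cdk1*, -18 in *Cdc20*, -29 in *Ube2c* and -23 in *Top2a*, counted back from the first base of the transcript. Each of the 4 had a CCAAT match further upstream, at -48, -53, -57 and -58.

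Cells were assigned to classes by the summed UMIs of marker genes per 10000 UMIs of the cell. The classes were cancer (*Krt8*, *Krt18*, *Rhox5*, *Hmga2*), macrophage (8 markers, among them *Csf1r* and *C1qa*), endothelial (8, *Pecam1*), fibroblast (6, *Col1a1*), lymphocyte (12, *Cd3d*), pericyte (6) and granulocyte (6, *S100a8*). A droplet with markers of more than 1 class counted as mixed and stayed out. Such a gate cuts a range of marker levels and does not define a cell type. Within 20% of the limit lay 244 and 486 cells for the cancer class and 177 and 270 for the macrophage class. Of the 34718 cells kept, 26110 were in a class. In macrophage-gated cells the median cell had 143 and 113 macrophage-marker UMIs per 10000 and 1.2 and 1.33 of cancer markers. In cancer-gated cells the medians were 16.1 and 15.6 for cancer markers and 0.54 and 1.29 for macrophage markers.

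The name of the list was checked against its behavior within cells. In cancer-gated cells cut at random to 20000 UMIs (7210 cells of sGC Ctr and 5225 of sGC ∆PC), all 496 pairs of members had a correlation above 0 over cells. For sGC Ctr the median of the pairs was 0.515 and for sGC ∆PC 0.409, with ranges of 0.273 to 0.758 and 0.164 to 0.687. *Birc5* with *Ube2c* was the closest pair in both libraries, while *Aurkb* with *Cdkn3* was the loosest in sGC Ctr and *Kif4* with *Cdkn3* in sGC ∆PC. The summed members followed 47 other mitosis genes (0.880 and 0.900), less closely 44 genes of DNA replication (0.613 and 0.600), and barely 29 genes of cell cycle entry and arrest (0.144 and 0.0672). Single genes of the entry and arrest list lay on both sides of 0, such as *E2f8* (0.278 and 0.188) and *Ccnd2* (-0.18 and -0.237). These cells share a library and a depth, so the correlations are descriptions. The members thus varied together over these cells, closer to the other mitosis genes than to the replication list. This does not place all of them in a single phase.

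Among members, *Birc5* (survivin, the anti-apoptotic subunit of the chromosomal passenger complex) had the highest correlation with the sum of the others, 0.829 in sGC Ctr and 0.793 in sGC ∆PC. *Mki67*, the proliferation antigen that coats mitotic chromosomes, followed in sGC Ctr at 0.802, and *Top2a*, the topoisomerase that untangles sister chromatids, in sGC ∆PC at 0.769. *Cdkn3* was lowest in both, at 0.489 and 0.408, with 13.5% and 17.0% of cells holding a UMI of it. *Top2a* was also the member nearest to the replication list (0.649 and 0.631), and *Cdkn3* (0.174 and 0.144) and *Kif20a* (0.199 and 0.168) were among the farthest. Outside the list and among genes found in at least 5% of these cells, *Hmgb2*, *H2afz* and *Stmn1* came first in both libraries, in that order. *Hmgb2*, a chromatin protein of dividing cells, reached 0.827 and 0.824 with the summed members. *Stmn1*, the microtubule destabilizer stathmin, reached 0.717 and 0.702. The remaining genes of the first 10 in sGC Ctr were *Pclaf*, *Smc2*, *Cdca3*, *Racgap1*, *Anln*, *Spc24* and *Sgo2a*, and in sGC ∆PC *Tuba1b*, *Smc2*, *Pclaf*, *Hmgb1*, *Cdca3*, *Cks2* and *Hist1h2ap*.

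Cancer-gated cells carried most of the mitosis-gene RNA, with 92.3% (sGC Ctr) and 92.5% (sGC ∆PC) of all member UMIs. They also held most of the RNA of any kind. Of all UMIs of kept cells, 427329066 of 476464534 were theirs in sGC Ctr and 362077774 of 412064152 in sGC ∆PC. Their share of member UMIs thus largely follows their share of all UMIs. The summed members stood at 1609 (1605 to 1613) CPM in the 7672 cancer-gated cells of sGC Ctr and at 1720 (1716 to 1724) in the 13759 of sGC ∆PC. Macrophage-gated cells came next in sGC Ctr, at 1480 (1465 to 1495) in 1948 cells, and were at 983 (970 to 997) in the 1744 cells of sGC ∆PC. Endothelial cells were at 929 (883 to 976; 61 cells) and 1043 (985 to 1104; 57 cells). Lymphocytes stood close to them at 1048 (938 to 1168; 77 cells) and 1056 (964 to 1156; 84 cells), with intervals that overlap those of endothelial cells in both libraries. The 2 classes differed in depth, with medians of 3235 and 4589.5 UMIs in lymphocytes and 24275 and 18256 in endothelial cells. Fibroblasts were lower, at 519 (493 to 545; 128 cells) and 804 (768 to 842; 188 cells). Pericytes, with only 34 and 24 cells, were at 1301 (1195 to 1414) and 2068 (1904 to 2242), the highest class level in sGC ∆PC. The lowest class in both libraries was granulocytes, short-lived cells that do not divide in tissue, at 440 (378 to 508; 146 cells) and 638 (575 to 707; 188 cells).

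**Figure D1:**
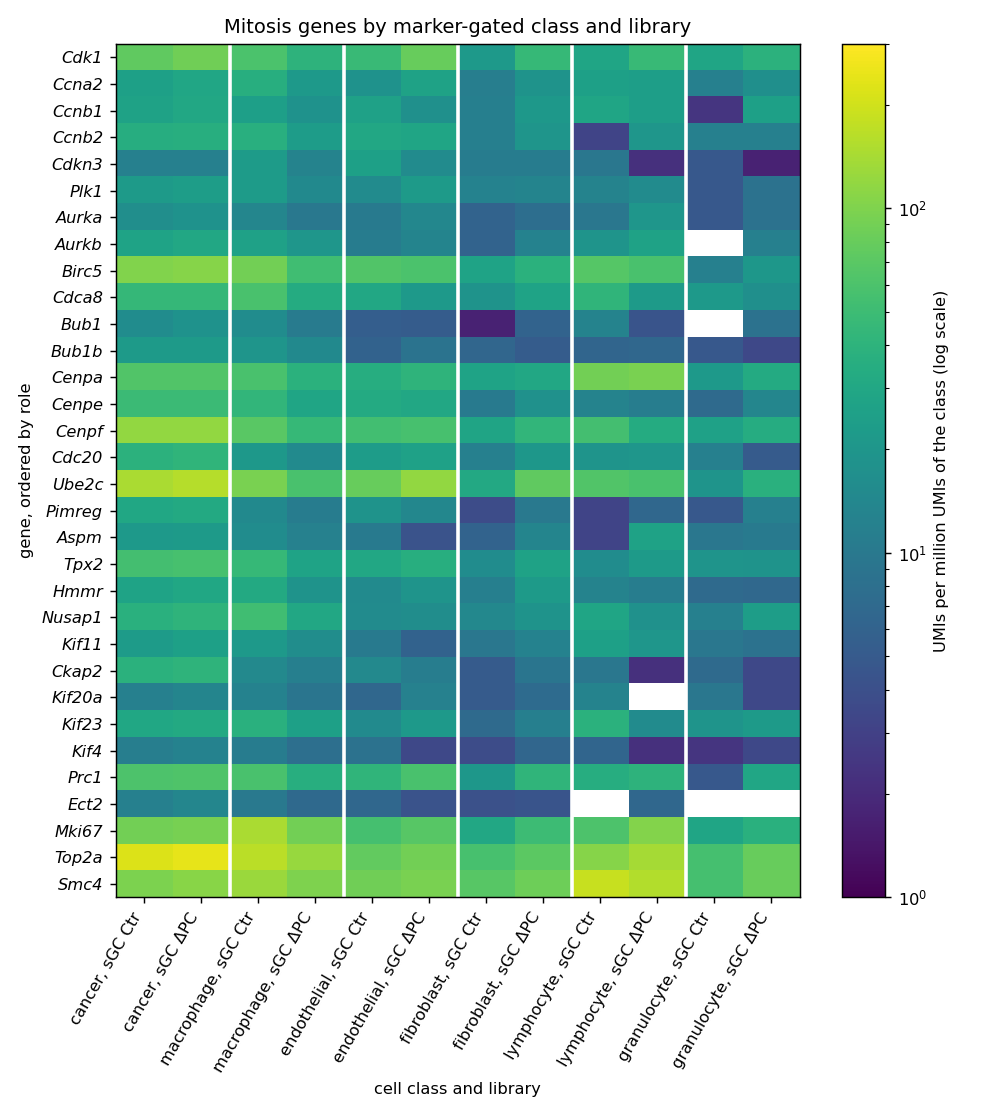
Level of each mitosis gene (rows, ordered by role) in each marker-gated class and library (columns), as CPM on a logarithmic color scale, with white for a gene without a UMI. The macrophage column of sGC ∆PC is darker than that of sGC Ctr for all 32 genes, and *Top2a* is the brightest row of the cancer class at 224 and 245 CPM.

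The granulocyte level serves as a measure of mitosis-gene RNA in droplets whose cell should lack it. In granulocytes the cancer markers stood at 8.64% of their cancer-cell level for sGC Ctr and 11% for sGC ∆PC, where the median cells had 2483.5 and 2729 UMIs. Cancer RNA at those shares would carry 139 and 189 CPM of members. A set of 7 other cancer genes kept out of the gate (*Igf2bp1* to *Igf2bp3*, *Lin28b*, *Krt7*, *Krt19* and *Peg10*) gave 48.7% and 48.2% in granulocytes on 28 and 38 UMIs, or 783 and 828 CPM of members, which is above the measured level. The markers thus gave different shares, and the part of such RNA in the granulocyte level was not tested.

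Cells were then compared at equal depth, each cut at random to 2000 UMIs. A cell was called mitosis-high where it had 5 or more UMIs of members, the smallest number that under 1% of the 334 granulocyte-gated cells reached. In the cancer class 1525 of 7672 cells were mitosis-high in sGC Ctr, 19.9% (19.0 to 20.8), and 3109 of 13759 in sGC ∆PC, 22.6% (21.9 to 23.3). In the macrophage class 221 cells, 11.3% (9.97 to 12.8), and 140 cells, 8.03% (6.80 to 9.40), passed. The order of the libraries was thus opposite in the cancer and macrophage classes. In the cancer class it turned with the minimum (14.0% and 13.5% with 7 or more UMIs), and the shares were 12.9% and 13.0% at 1000 UMIs. Few cells passed elsewhere: 4 of 61 and 5 of 57 endothelial cells, 4 of 128 and 8 of 188 fibroblasts, and 2 of 77 and 3 of 84 lymphocytes. Of the pericytes 2 of 34 (5.88%, 0.72 to 19.7) and 3 of 24 (12.5%, 2.66 to 32.4) passed. The highest single pericyte held 44 and 23 member UMIs, where the class means were 2.35 and 2.79, so few cells weigh heavily in the pericyte level. In granulocytes 0 of 146 cells passed, which allows a share of up to 2.05% by 3 counts and 2.495% by the exact binomial bound, and 3 of 188 (1.596%, 0.33 to 4.59). The minimum was set on these same granulocytes, so their low share follows from that choice and is not a separate measurement. The intervals of endothelial cells, fibroblasts and lymphocytes overlap those of granulocytes in both libraries. Cells within 1 UMI of the minimum, on 4 or 5 member UMIs, numbered 490 and 1669 in the cancer class and 44 and 54 in the macrophage class.

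**Figure D2:**
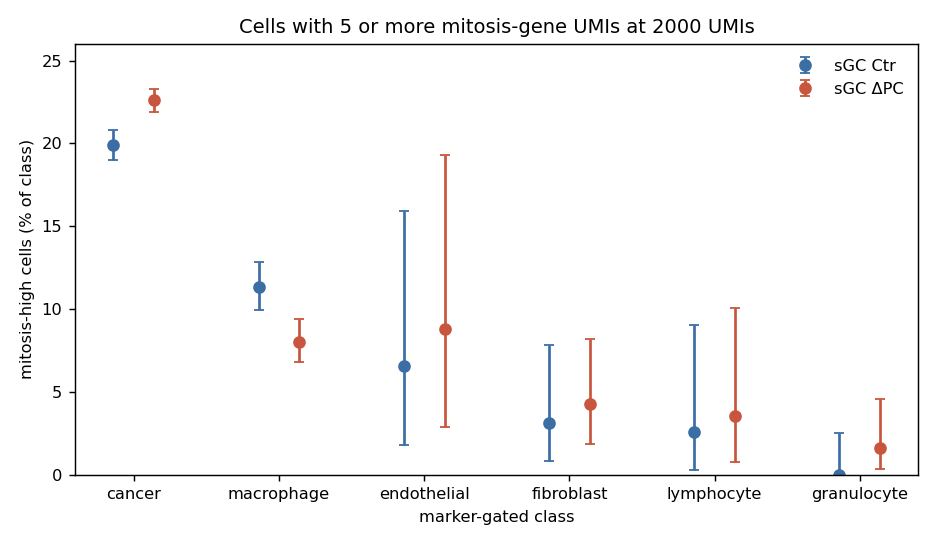
Share of mitosis-high cells (5 or more member UMIs after each cell was cut to 2000 UMIs) in each class, with exact binomial intervals at 95% for counting error. The cancer class lies highest at 19.9% and 22.6%, and the macrophage class next in sGC Ctr at 11.3%. Granulocytes, on which the minimum was set, lie near 0.

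In cancer-gated cells the summed members differed little between libraries, by 0.10 (0.09 to 0.10) on the log2 scale as sGC ∆PC over sGC Ctr. How that RNA was spread over cells differed more. At 2000 UMIs, 45.6% of the cancer-gated cells of sGC Ctr and 28.4% of those of sGC ∆PC held no member UMI. The median cancer cell had 2.66 and 8.36 member UMIs per 10000, and the cell at the 95th percentile 56.9 and 48.7. Mitosis-high cancer cells stood at 4562 CPM (sGC Ctr) and 3957 CPM (sGC ∆PC) while the other cancer cells were at 553 and 824. These cells too were split by the UMIs compared. Granulocytes, which should lack this RNA, went the same way between libraries. In them 39.7% and 30.3% of cells held no member UMI at 2000 UMIs, and the level was 440 and 638 CPM. The part of such background RNA in the spread over cancer cells was not tested.

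The difference between libraries in cancer cells moved with the UMI count of the cell. Among cancer cells with 80000 or more UMIs, 46.0% (43.1 to 48.9) and 50.0% (46.6 to 53.4) were mitosis-high. With 40000 to 80000 UMIs the shares were 19.1% (17.9 to 20.3) and 19.9% (18.3 to 21.5), and the mean levels 12 and 12.5 member UMIs per 10000. In these deep cells the libraries lay close together. With 20000 to 40000 UMIs the shares parted to 6.05% (5.00 to 7.24) of 1819 cells and 26.7% (24.7 to 28.7) of 1927 cells. Between 10000 and 20000 UMIs they were 8.70% of 207 cells and 21.2% of 3233 cells, and between 2000 and 5000 UMIs 27.7% of 141 cells and 17.7% of 1435 cells. Cells of 5000 to 20000 UMIs made up the largest part of the class in sGC ∆PC (28.1% and 23.5% in the bins on either side of 10000) and a small part in sGC Ctr (1.49% and 2.70%). The part of depth in the difference was not tested.

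**Figure D3:**
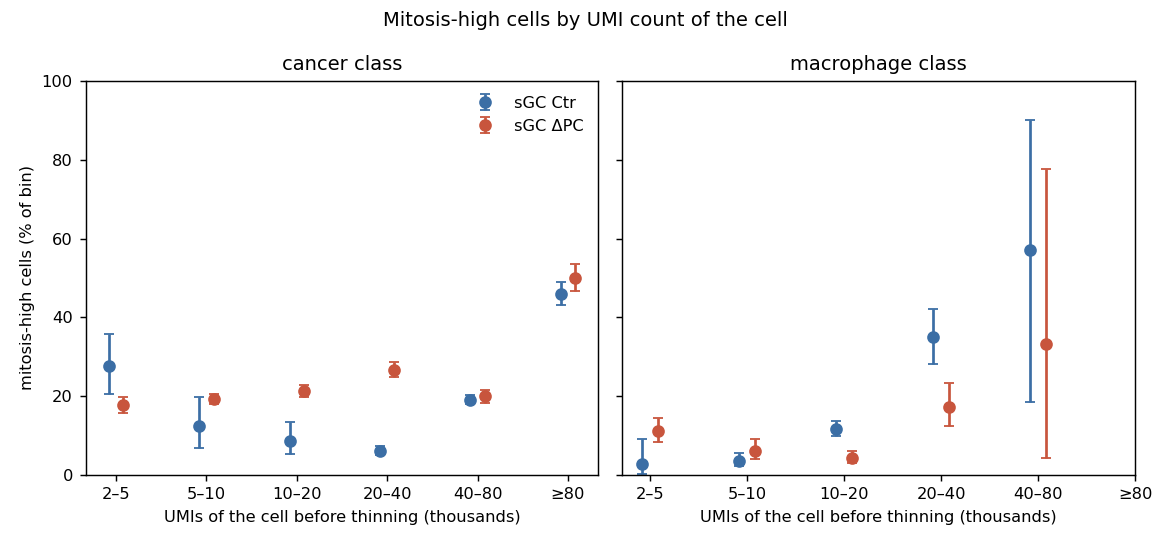
Share of mitosis-high cells by the UMI count of the cell before it was cut to 2000 UMIs, in the cancer class (left) and the macrophage class (right), with exact binomial intervals at 95%. In the cancer class the libraries meet at 40000 UMIs and above and are farthest apart at 20000 to 40000 (6.05% and 26.7%), and in the macrophage class sGC Ctr lies above sGC ∆PC from 10000 to 40000 UMIs.

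In macrophage-gated cells the summed members were lower in sGC ∆PC by 1.5-fold, with a log2 ratio of -0.59 (-0.61 to -0.56). This interval treats UMIs as separate counts. It does not cover how many mitosis-high macrophages were captured (221 and 140), and the same holds for the intervals of single members. At equal depth the mean was 2.19 member UMIs per cell in sGC Ctr and 1.74 in sGC ∆PC, a log2 ratio of -0.34 (-0.40 to -0.27). Within the class the level of mitosis-high cells was 7329 CPM for sGC Ctr against 6864 for sGC ∆PC, and that of the other macrophages 371 and 391. The cells were split by the same UMIs that are compared here, so these levels are a description of the split. For sGC Ctr the median mitosis-high macrophage held 16914 UMIs, 1.49 times the median of the other macrophages. For sGC ∆PC it held 9797.5 UMIs, 0.934 times.

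The order of the libraries varied with the UMI count here too, though the intervals overlap in the bins where it turned. With 10000 to 20000 UMIs 11.7% (9.85 to 13.8) of 1085 macrophages were mitosis-high in sGC Ctr and 4.22% (2.87 to 5.98) of 710 in sGC ∆PC. With 20000 to 40000 UMIs the shares were 34.9% (28.2 to 42.1) of 192 and 17.3% (12.4 to 23.3) of 202. With 5000 to 10000 UMIs the order was the other way, 3.57% (2.22 to 5.41) of 588 cells and 6.12% (3.92 to 9.04) of 376, with intervals that overlap. It was also the other way with 2000 to 5000 UMIs, 2.63% (0.32 to 9.18) of 76 cells and 11.1% (8.36 to 14.4) of 450, again with intervals that overlap. In that bin the median sGC ∆PC cell also had 2.19 cancer-marker UMIs per 10000, against 0 in sGC Ctr.

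RNA from cancer cells was measured beside these values. Over the whole macrophage class the 4 cancer markers stood at 7.54% of their cancer-cell level in sGC Ctr and 8.33% in sGC ∆PC, which at the same proportions would carry 121 and 143 CPM of members. The 7 cancer genes kept out of the gate gave 12.5% and 17.4%, or 200 and 299 CPM. The class levels were 1480 and 983. The 4 cancer markers were at 120 CPM in mitosis-high macrophages and 137 in the others of sGC Ctr, and at 117 and 143 in sGC ∆PC, but the gate itself caps these genes in every macrophage-gated cell. Their macrophage markers were also near those of the others, at 14272 and 14823 in sGC Ctr and 12417 and 12614 in sGC ∆PC. The held-out cancer genes were at 14.4 and 17.7 in sGC Ctr and, in the other order, at 25.6 and 23.4 in sGC ∆PC. The part of cancer RNA in the macrophage result was not tested.

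The members were next compared one by one between libraries, ordered by role, as CPM in the cancer class and then in the macrophage class, with the log2 ratio of sGC ∆PC over sGC Ctr. *Cdk1*, the kinase that drives entry, was at 75.1 and 87.3 in cancer cells (0.22, 0.19 to 0.24), the highest ratio of any member in that class. In macrophages it was at 59.7 and 40.0 (-0.58, -0.70 to -0.45). *Ccna2*, cyclin A2, was at 25.6 and 29.5 in cancer cells (0.20, 0.17 to 0.24) and at 35.9 and 21.8 in macrophages (-0.72, -0.89 to -0.55). Of the B cyclins, which activate CDK1, *Ccnb1* had ratios of 0.19 (0.15 to 0.23) and -0.47 (-0.66 to -0.28) and *Ccnb2* of 0.04 (0.01 to 0.08) and -0.64 (-0.80 to -0.48). *Cdkn3*, a phosphatase that removes an activating phosphate from cyclin-dependent kinases, was level in cancer cells at 12.03 and 12.07 (0.01, -0.05 to 0.06). In macrophages it was at 22.7 and 12.8, the lowest ratio of the list (-0.83, -1.05 to -0.61). As a group these genes were at 174 and 195 CPM in cancer cells and 180 and 116 in macrophages.

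The mitotic kinases and the passenger complex, which moves from centromeres to the midzone, went the same ways. *Plk1*, polo-like kinase 1, was at 22.3 and 24.0 in cancer cells (0.10, 0.06 to 0.15) and 23.1 and 15.0 in macrophages (-0.63, -0.83 to -0.42). *Aurka*, the Aurora kinase of the spindle poles, had ratios of 0.14 (0.09 to 0.19) and -0.48 (-0.74 to -0.22). *Aurkb*, the kinase of the passenger complex, had 0.16 (0.12 to 0.20) and -0.40 (-0.59 to -0.22). Its partners *Birc5* and *Cdca8* (borealin) had lower ratios between libraries in macrophages than the kinase itself, at higher CPM. *Birc5* was at 101 and 106 in cancer cells (0.07, 0.05 to 0.09) and at 88.5 and 52.1 in macrophages (-0.77, -0.87 to -0.66). *Cdca8* was at 44.4 and 44.6 in cancer cells (0.01, -0.02 to 0.04) and at 58.3 and 33.4 in macrophages (-0.80, -0.94 to -0.67).

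At centromeres and kinetochores the cancer classes were closest. *Cenpa*, the histone variant that marks the centromere, was at 63.8 and 63.4 (-0.01, -0.04 to 0.01). *Cenpf*, a large kinetochore and microtubule-binding protein, was at 120 and 119 (-0.01, -0.03 to 0.01), and these were the only members of the 32 below 0 in cancer cells. The kinesin gene *Cenpe* had a ratio of 0.01 (-0.02 to 0.04) and *Bub1b*, of the checkpoint, 0.02 (-0.02 to 0.07), both intervals holding 0, while the checkpoint kinase *Bub1* had 0.18 (0.13 to 0.23). In macrophages the same 5 genes lay between -0.64 (-0.77 to -0.51) for *Cenpa* and -0.40 (-0.61 to -0.19) for *Bub1b*. Their sum was at 270 and 272 CPM in cancer cells and at 207 and 138 in macrophages.

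Of the partners of the anaphase-promoting complex, *Ube2c* was at 144 and 160 in cancer cells (0.15, 0.14 to 0.17) and 96.2 and 58.5 in macrophages (-0.72, -0.82 to -0.62). *Cdc20*, the activator that the checkpoint restrains, was at 39.2 and 41.5 (0.08, 0.05 to 0.12) and 21.0 and 15.3 (-0.46, -0.67 to -0.25). Listed beside these partners, *Pimreg*, a mitotic protein that binds the clathrin assembly factor PICALM, had ratios of 0.09 (0.06 to 0.13) and -0.45 (-0.70 to -0.20). The sum of these 3 genes was at 213 and 234 CPM in cancer cells and at 132 and 84.6 in macrophages.

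Among spindle genes *Nusap1*, *Hmmr* and *Tpx2* had the lowest ratios between libraries in macrophages. *Nusap1*, which bundles microtubules, was at 52.0 and 30.4 (-0.78, -0.92 to -0.63), *Hmmr*, the hyaluronan receptor that also binds spindle poles, at 31.7 and 18.6 (-0.77, -0.95 to -0.58), and *Tpx2*, the activator of Aurora A, at 45.9 and 27.3 (-0.75, -0.90 to -0.60). The motor gene *Kif11* had -0.42 (-0.63 to -0.22) and *Aspm*, which focuses spindle poles, -0.38 (-0.61 to -0.14). *Ckap2*, which encodes a microtubule-associated protein, was the member closest to 0 in macrophages, at 14.7 and 11.7 (-0.33, -0.57 to -0.08). In cancer cells the 6 ranged from 0.02 (-0.02 to 0.06) for *Aspm* to 0.16 (0.12 to 0.20) for *Kif11*.

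The midzone and cytokinesis genes were led by *Prc1*, which cross-links midzone microtubules, at 61.2 and 62.7 in cancer cells (0.04, 0.01 to 0.06) and 58.0 and 35.6 in macrophages (-0.70, -0.84 to -0.57). *Kif23*, the motor of centralspindlin, had ratios of 0.11 (0.08 to 0.15) and -0.55 (-0.71 to -0.39). *Ect2*, which switches on RhoA at the cleavage site, had 0.19 (0.14 to 0.25) and -0.52 (-0.82 to -0.21), and the kinesins *Kif20a* and *Kif4* had -0.43 (-0.71 to -0.16) and -0.43 (-0.72 to -0.14) in macrophages. Among the genes of chromosome structure, *Top2a* was at 224 and 245 in cancer cells (0.12, 0.11 to 0.14) and 168 and 123 in macrophages (-0.44, -0.52 to -0.37). *Mki67* was at 89.3 and 93.3 (0.06, 0.04 to 0.08) and 145 and 88.8 (-0.71, -0.80 to -0.63). *Smc4*, of condensin, was at 97.4 and 108 (0.14, 0.12 to 0.16) and 126.8 and 99.98 (-0.34, -0.42 to -0.26).

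A fold of 1.5, on counts with 0.5 added and over genes that had 50 UMIs or more when the libraries were added up, was used to set the members beside all genes. In cancer cells 0 of 32 members were past it in either direction, where 9.52% of 15477 genes were higher and 0.782% lower. The members' median was 0.11 with 30 of 32 above 0, and that of all genes 0.01 with 7966 of 15477 above 0. In macrophages 14 of 32 members (43.8%) were lower by 1.5-fold or more and 0 higher, where 2.18% of 11576 genes were lower and 3.08% higher. All 32 were below 0, with a median of -0.57 and a range of -0.83 to -0.32. All genes had a median of -0.05, with 7080 of 11576 below 0. The 14 were *Mki67*, *Ccnb2*, *Ccna2*, *Plk1*, *Cenpa*, *Cenpf*, *Tpx2*, *Hmmr*, *Birc5*, *Ube2c*, *Nusap1*, *Prc1*, *Cdkn3* and *Cdca8*.

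At equal depth, where every cell weighs the same, the macrophage difference was smaller. There 4 of 32 members (12.5%) were lower by 1.5-fold, *Mki67*, *Hmmr*, *Cdkn3* and *Cdca8*, where 3.52% of 8684 genes were lower and 3.13% higher, and 0 members were higher. The median was -0.26 with 28 of 32 below 0, against -0.07 for all genes with 5404 of 8684 below 0. *Pimreg*, *Aurka*, *Plk1* and *Cdc20* lay above 0 with intervals that hold 0. *Cdca8* had the largest difference at 93.9 and 51.0 UMIs per 1000 cells (-0.88, -1.26 to -0.51), and *Mki67* was at 217 and 136 (-0.68, -0.91 to -0.44). In cancer cells at equal depth 0 of 32 members were past 1.5-fold either way, where 6.80% of 11551 genes were higher and 2.36% lower. The members' median was 0.20 with 27 above 0, and 4889 of all 11551 genes were above 0. *Cdk1* was highest there at 116 and 165 per 1000 cells (0.51, 0.40 to 0.63), followed by *Ccna2* (0.48, 0.28 to 0.68) and *Ube2c* (0.47, 0.38 to 0.55). *Mki67* was on the other side of 0 (-0.11, -0.21 to -0.000731) and so was *Cenpf* (-0.10, -0.19 to -0.00288).

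**Figure D4:**
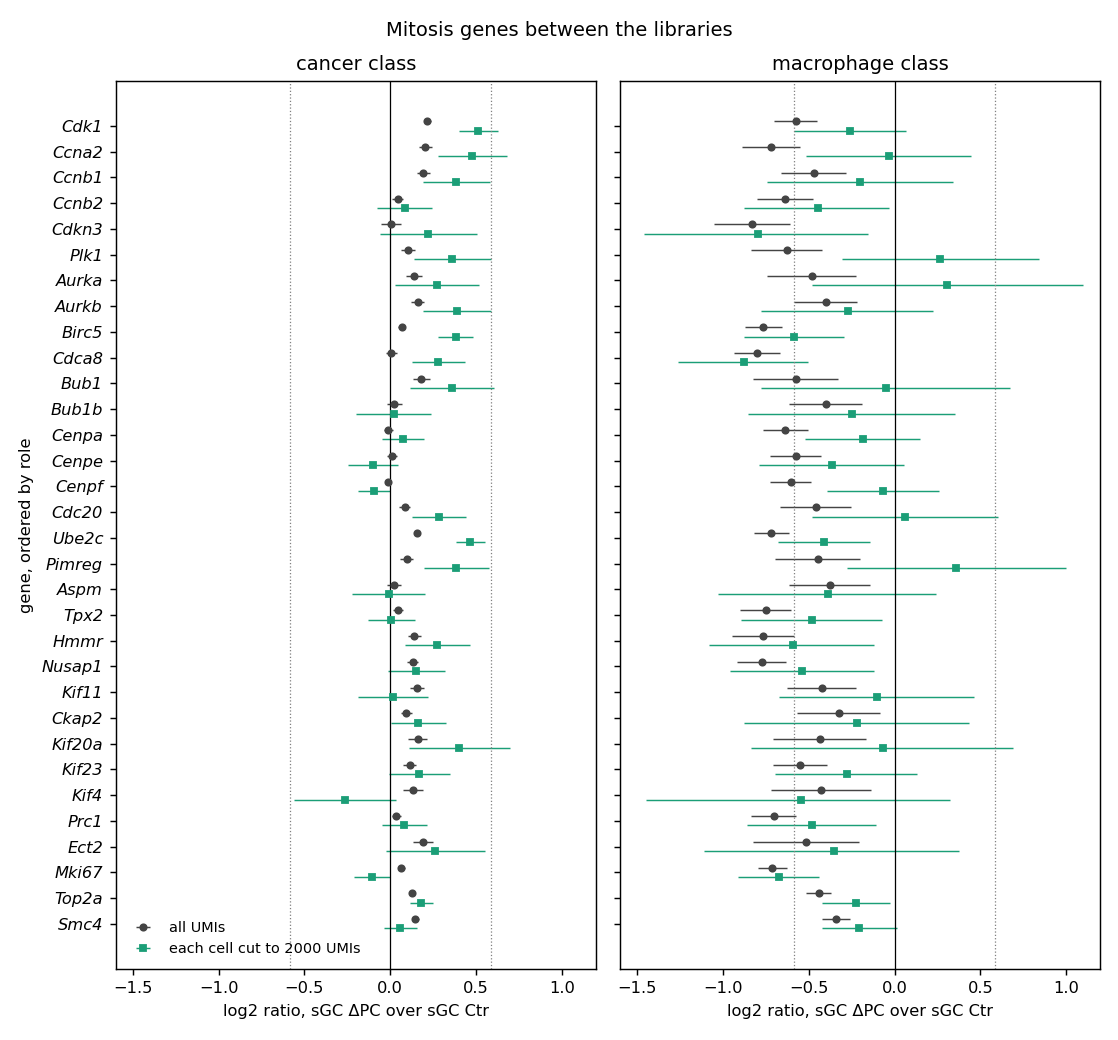
Log2 ratio of sGC ∆PC over sGC Ctr for each member in the cancer class (left) and macrophage class (right), from all UMIs (dark circles) and with each cell cut to 2000 UMIs (green squares), with exact conditional intervals at 95% and dotted lines at 1.5-fold. Dark circles lie at or above 0 for 30 of 32 members in cancer cells and below 0 for all 32 in macrophages, and most squares in macrophages lie nearer to 0.

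Other lists of the cell cycle gave the setting in macrophages. Of 47 other mitosis genes 13 were lower by 1.5-fold and 0 higher (median -0.50), and of 44 DNA replication genes 8 were lower and 0 higher (median -0.41). Of 29 genes of cell cycle entry and arrest 0 were past the fold in either direction (median -0.01). That median pools smaller differences both ways. *Btg2* (0.49, 0.42 to 0.55) and *Btg1* (0.35, 0.31 to 0.38) were above 0, and *E2f1* (-0.26, -0.41 to -0.12) and *Ccnd1* (-0.23, -0.28 to -0.18) below. In cancer cells 0 of the 47 and 0 of the 44 were past it, with medians of 0.11 and 0.08. Of 28 entry and arrest genes 2 were higher, where 9.52% of all genes were. These were *Cdkn1c* (36 and 52 UMIs) and *Cdkn2b* (19 and 43 UMIs), both near the floor at 0.084 and 0.144 CPM and at 0.044 and 0.119 CPM. In macrophages 45 of the 47 other mitosis genes and all 44 replication genes lay below 0, and 15 of the 29 entry and arrest genes did. Of all 11576 genes 7080 lay below 0 there.

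Within a library the overlap of mitosis and replication RNA in single cells was partial at these minimums. A cell cut to 2000 UMIs can miss either minimum by sampling, so this does not show separate groups of cells. Of the mitosis-high cancer cells 35.7% in sGC Ctr and 28.3% in sGC ∆PC also held 6 or more UMIs of the replication list, the number that under 1% of granulocytes reach at 2000 UMIs. Of the other cancer cells, 671 of 6147 in sGC Ctr and 1605 of 10650 in sGC ∆PC reached that number. Of all cancer cells that reached it, 55.2% and 64.6% were not mitosis-high. In macrophages 48% and 30.7% of mitosis-high cells reached the replication minimum, beside 116 of 1727 and 92 of 1604 of the others. Summed over the class, replication genes were at 3217 CPM in mitosis-high macrophages and 1019 in the others in sGC Ctr, and at 2665 and 886 in sGC ∆PC. Mitosis-high cancer cells had 2450 and 1382, and 2300 and 1546.

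Mitosis-high macrophages and mitosis-high cancer cells held the members in different proportions. The share of each member among all member UMIs of mitosis-high cells was compared between the classes within each library. The interval of the ratio lay above 0 in both libraries for 8 members and below 0 in both for 9, and for 0 members on opposite sides. The sign of the ratio was the same in both libraries for 30 of 32 members. *Cdkn3* made up 1.62% of member UMIs in mitosis-high macrophages and 0.751% in mitosis-high cancer cells of sGC Ctr, a log2 ratio of 1.11 (0.97 to 1.25), and of 0.95 (0.71 to 1.18) in sGC ∆PC. *Mki67* made up 10.3% and 5.73% in sGC Ctr (0.85, 0.79 to 0.90) and 10.6% and 5.75% in sGC ∆PC (0.88, 0.80 to 0.96). *Nusap1*, *Ccna2*, *Cdca8*, *Kif23*, *Smc4* and *Ccnb2* were the other members with higher shares in macrophages, with ratios between 0.26 and 0.72 in sGC Ctr and between 0.28 and 0.50 in sGC ∆PC.

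In the other direction *Ckap2* made up 0.866% in macrophages and 1.92% in cancer cells of sGC Ctr (-1.15, -1.34 to -0.97) and 0.899% and 2.03% in sGC ∆PC (-1.18, -1.46 to -0.91). *Pimreg* (-0.96 and -0.83), *Cdc20* (-0.76 and -0.66), *Cenpf* (-0.61 and -0.53) and *Ube2c* (-0.47 and -0.64) followed. *Top2a*, *Cdk1*, *Cenpa* and *Tpx2* were also below 0 in both, by less. *Cdc20* and *Ube2c*, the partners of the anaphase-promoting complex, and *Pimreg*, which was only listed beside them, thus had lower shares in mitosis-high macrophages. The cells were picked by their summed members, so the total is fixed by that choice and only the proportions are compared.

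**Figure D5:**
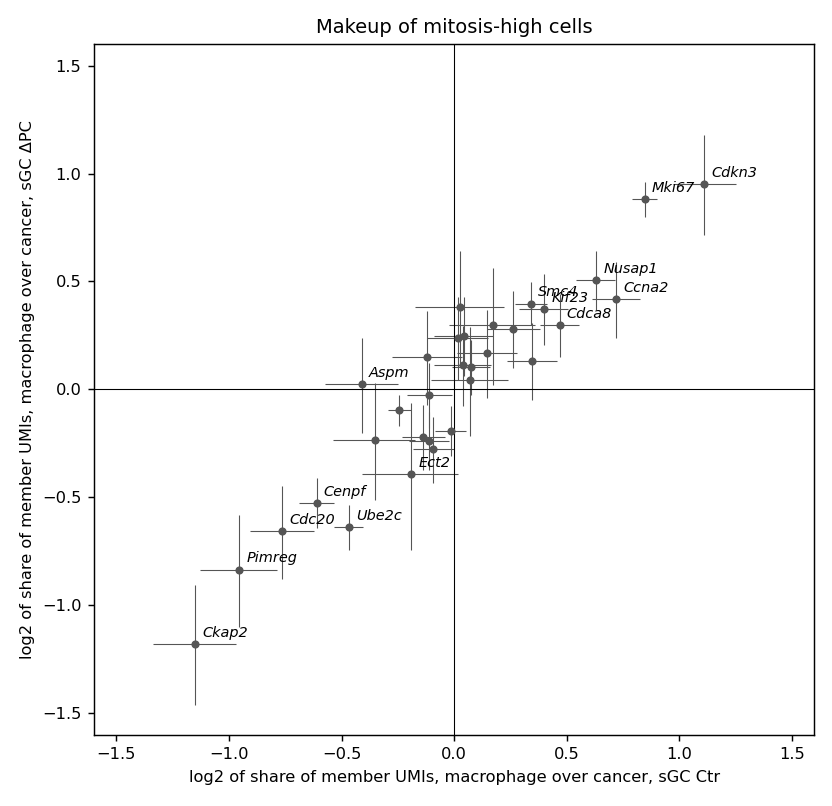
Share of each member among the member UMIs of mitosis-high cells, as the log2 ratio of macrophages over cancer cells, in sGC Ctr (horizontal) and sGC ∆PC (vertical), with exact conditional intervals at 95%. Points run along the diagonal from *Ckap2* (-1.15 and -1.18) to *Cdkn3* (1.11 and 0.95), and 30 of 32 have the same sign in both libraries.

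In fibroblasts the summed members were higher in sGC ∆PC, with a log2 ratio of 0.63 (0.54 to 0.73). Of the 21 members with enough UMIs 12 (57.1%) were higher by 1.5-fold or more and 0 lower, where 4.22% of 8146 genes were higher and 4.66% lower. *Ube2c* was at 31.4 and 74.6 CPM (1.25, 0.88 to 1.63), *Cdk1* at 22.1 and 45.8 (1.05, 0.59 to 1.53) and *Prc1* at 20.7 and 41.8 (1.02, 0.54 to 1.51). The other 9 were *Mki67*, *Ccnb1*, *Ccnb2*, *Ccna2*, *Cdc20*, *Cenpe*, *Cenpf*, *Tpx2* and *Hmmr*. Other values differed between the libraries as well. The median fibroblast was deeper in the control library, with 21651.5 UMIs against 6140. Cancer markers stood at 6.02% and 9.27% of their cancer-cell level, and the members in granulocytes had a ratio of 0.54 (0.28 to 0.80). The 7 held-out genes gave 63.1% and 65.7%, but among them *Krt19* was higher in fibroblasts (43.1 and 40.1 CPM) than in cancer cells (4.80 and 4.55), so they do not measure cancer RNA in this class. Their part in the result was not tested. Of 44 replication genes 28 had enough UMIs, of which 1 was higher and 4 lower. The few mitosis-high fibroblasts were at 5858 and 5482 CPM. They were 4 of 128 (3.13%, 0.86 to 7.81) and 8 of 188 (4.26%, 1.86 to 8.21), with intervals that overlap. The others were at 211 and 276, where the class was at 519 and 804. Most of the sum thus came from the mitosis-high cells, and its interval does not cover how many of them were captured. At equal depth the mean fibroblast had 0.914 and 1.2 member UMIs.

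Endothelial cells had a log2 ratio of the sum of 0.17 (0.06 to 0.28). Of 19 members with enough UMIs *Cdk1* (47.3 and 79.0; 0.74, 0.29 to 1.2) and *Ube2c* (78.9 and 119; 0.59, 0.24 to 0.95) were higher by 1.5-fold, and *Cdkn3* (25.5 and 15.6; -0.70, -1.59 to 0.12) was lower. Of all 6250 genes 4.90% were higher and 3.76% lower, beside 10.5% and 5.26% of the 19 members. The sum turned below 0 under other gates and at equal depth and so had no settled direction. The 4 and 5 mitosis-high endothelial cells stood at 9224 and 4449 CPM, and the others at 301 and 366.

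Lymphocytes showed no difference in the sum at this depth, with a log2 ratio of 0.01 (-0.20 to 0.22) on 328 and 476 member UMIs. Cancer RNA at the share of the 4 gate markers would carry 130 and 194 CPM of members in this class. At the share of the 7 held-out genes, on 14 and 17 UMIs, it would carry 521 and 479. The lymphocytes that were not mitosis-high stood at 569 and 653 CPM. The part of such RNA was not tested. *Smc4* (185 and 155 CPM), *Top2a* (106 and 138), *Cenpa* (89.5 and 95.4) and *Mki67* (60.7 and 104) had the most UMIs. *Kif20a* had 4 UMIs in the control library and 0 in the other, which allows up to 6.66 CPM, and *Ect2* 0 and 3, with a limit of 9.59 in sGC Ctr. *Aspm* counted 1 and 12 UMIs (3.06, 0.30 to 8.48), the only member whose interval leaves out 0 in this class.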

How the data were processed

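Cells of LLC tumors were captured with a 10x 3′ kit, in 1 library of 3 pooled tumors per group. The deposited values are raw UMI counts per gene and barcode, which the authors made with Cell Ranger 6.1.1 on mm10, and the feature and barcode lists name their rows and columns. Cells with under 10% mitochondrial UMIs and within 3 median absolute deviations of the median log UMIs and log genes were kept. The gate asked for at least 2 marker UMIs and, per 10000 UMIs, 5 for cancer, 50 for macrophage, 15 for endothelial, 100 for fibroblast, 10 for lymphocyte, 20 for pericyte and 100 for granulocyte markers. No doublet caller was used, and mixed droplets were left out. The members, lists and markers were chosen with earlier results of these data known, and the gate limits after the marker distributions were seen. All 32 members were reported, which was the rule for named genes. Levels are CPM (UMIs per 1000000 UMIs of a class), in which deep cells weigh more. Counts of 3′ ends were not scaled by gene length, so the levels of different genes are not compared as amounts of transcript. For equal depth, UMIs were drawn at random without replacement. With 1 library per group no p-value was computed. Poisson, conditional and binomial (Clopper-Pearson) intervals are exact at 95%. Where a gene had 0 UMIs or 0 cells passed, 3 counts gave the limit. Steps were tested on simulated data. Python 3.11.15, numpy 2.4.6, pandas 2.3.3, scipy 1.17.1 and matplotlib 3.10.9 were used.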

Additional observations from a re-analysis of the deposited data

Results flagged for a closer look

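The members lay on opposite sides of 0 in the 2 main classes, as sGC ∆PC over sGC Ctr: 30 of 32 were above 0 in cancer-gated cells and 32 of 32 below 0 in macrophage-gated cells. Of all genes 7966 of 15477 were above 0 in cancer-gated cells and 7080 of 11576 below 0 in macrophage-gated cells. With 1 library per group the difference of the members was not tested.

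Mitosis-gene UMIs were also present in droplets that entered no comparison, at levels above those of granulocytes (439.5 CPM for sGC Ctr, 638.4 for sGC ∆PC). Droplets that passed no gate were at 812.3 and 874.3 CPM, mixed droplets at 1085 and 1142, and cells under 2000 UMIs at 1111 and 1364.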

How the results depend on the processing

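No paired analysis was possible because each group is 1 library, and for the same reason no replicate could be left out. These alternatives were chosen after seeing the data: no UMI minimum for the gate, other classes' markers at no more than 25% of their limits, and the settings at 5000 UMIs and over bins. The cause of the shifts was not tested.

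The log2 level of macrophages over cancer cells (-0.121 in sGC Ctr and -0.806 in sGC ∆PC) was -0.242 and -1.12 with a mitochondrial limit of 5%, -0.151 and -0.834 with gate limits doubled, -0.0911 and -0.644 with other classes under 25% of their limits, -0.223 and -0.754 as a mean over cells, and -0.0778 and -0.779 without *Top2a*. In sGC Ctr it was -0.0826 with gate limits halved and -0.137 with mixed droplets given to their highest class.

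The mitosis-high share of cancer cells (19.88% and 22.6%) was 12.92% and 12.95% at 1000 UMIs, 18.51% and 20.33% at 5000, 22.82% and 29.52% with a minimum of 4, 14.04% and 13.54% with 7, 22.39% and 23.84% with the 5% limit, 23.32% and 25.44% under 25% of the limits, 17.04% and 23.85% averaged over bins, and 21.1% in sGC Ctr with gate limits doubled. Only the minimum of 7 turned the order of the libraries. In macrophages (11.34% and 8.028%) it was 8.83% and 5.677% at 1000 UMIs, 9.292% and 6.537% with a minimum of 7, 13.13% in sGC Ctr under 25% of the limits and 10.44% in sGC ∆PC with a minimum of 4.

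The summed log2 ratio between libraries (0.0959 in cancer cells and -0.590 in macrophages) was 0.0395 and -0.837 with the 5% limit, 0.0809 and -0.472 under 25% of the limits, 0.190 and -0.340 as a mean over cells, 0.187 and -0.337 at equal depth, and 0.0899 and -0.539 relative to the median gene. It was 0.0808 in cancer cells with gate limits doubled and -0.649 in macrophages with limits halved. In endothelial cells (0.167) it turned to -0.0411 with limits doubled, -0.0567 under 25% of the limits, -0.133 as a mean over cells and -0.0783 at equal depth. The 14 members lower by 1.5-fold in macrophages, beside 2.18% of all genes, became 4 at equal depth, beside 3.52% of all genes. They became 28 with the 5% limit and 7 under 25% of the limits. For these settings the share of all genes is not given here, so their counts cannot be set beside it.

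At equal depth *Cenpe* (-0.101), *Aspm* (-0.0101) and *Cenpa* (0.073), whose intervals held 0 with all UMIs, changed sign in cancer cells. Of members whose interval left out 0, *Mki67* did so (-0.0795 with the 5% limit, -0.0492 as a mean over cells, -0.107 at equal depth). So did *Tpx2* (-0.0389), *Kif23* (-0.0244) and *Prc1* (-0.0536) with the 5% limit, and *Kif4* (-0.264) at equal depth. In macrophages *Cdc20* (0.0634), *Plk1* (0.267), *Aurka* (0.306) and *Pimreg* (0.357) changed sign at equal depth. *Kif20a* (0.0156) and *Ect2* (0.0356) did so as a mean over cells, and *Kif4* (0.00701) under 25% of the limits. Depth limits granulocytes (183 and 372 member UMIs) and lymphocytes (328 and 476) most among the classes compared.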
